A study of Mus musculus with 6 samples.

Results

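Caspases are the cysteine proteases that carry out apoptosis and pyroptosis, and Apaf1 is the scaffold of the apoptosome, on which Casp9 is activated. The expression of 7 caspase genes (Casp1, Casp2, Casp4, Casp6, Casp8, Casp9 and Casp12) and of Apaf1 was compared between macrophages with a miR-342-3p mimic and macrophages with a negative control mimic. These 8 genes, of 19938 genes tested, were chosen by symbol among probe sets annotated to exactly 1 gene, and each of the 8 had exactly 1 such probe set.

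The miR-342-3p group consisted of 3 arrays of RAW264.7 cells that had received a mimic of this microRNA, a synthetic RNA built to work like the natural microRNA. The control group consisted of 3 arrays of RAW264.7 cells that had received a scrambled mimic (miR-negative control). RAW264.7 is a mouse cell line with macrophage properties, the labels name no other treatment in either group, and RNA was collected at 18 h, with 150 ng going into each labelling reaction. The study was designed to find out which transcripts change when miR-342-3p, a microRNA that macrophages induce in response to IL-4, is present in excess.

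The microRNA that distinguishes the groups is shown because its seed, bases 2 to 8 from the 5′ end (in capitals), is the stretch by which a microRNA recognizes its messengers. In the RefSeq table of the build GRCm38.p6 the mature form has 23 bases and lies on the plus strand at chr12:108658680-108658702.
mmu-miR-342-3p: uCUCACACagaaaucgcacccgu

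Caspases are made as inactive zymogens, and their activity is set mainly by cleavage, adaptors and inhibitors, so a transcript level is not a level of activity. Initiator caspases (Casp2, Casp8, Casp9) are activated on adaptor platforms, executioner caspases such as Casp6 are cleaved by the initiators, and inflammatory caspases (Casp1, Casp4, and by kinship Casp12) act downstream of inflammasomes and of lipopolysaccharide in the cytosol. In macrophages, Casp1 and Casp4 cleave gasdermin D and so cause pyroptosis, and Casp1 also matures the interleukins Il1b and Il18.

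Values are log2 intensities summarized by RMA, differences are log2 fold changes of miR-342-3p minus control from limma, and a gene was called at an FDR under 0.1 over all genes tested. At this threshold 11.6% of all genes were called, 7.42% lower and 4.14% higher in miR-342-3p-transfected cells. Among the 8 genes, Casp2 alone was called (lower), which is 12.5% of them and near the share of all genes, and none was called higher. At an unadjusted p under 0.05 limma took 3 of the 8, with Casp1 and Casp2 lower and Casp9 higher, against 25.5% of all genes, and the methods' t-test, without a moderated spread, took 3, with Casp2 lower and Casp8 and Casp9 higher, against 20.2%. The methods of the study name this test for comparisons in general, whereas limma is the one stated for these arrays. The groups did not overlap for 4 of the 8 genes (50%), with Casp1 and Casp2 lower and Casp8 and Casp9 higher. Over all genes the groups did not overlap for 36.9%, with 15.5% lower and 21.4% higher. The median change of the 8 genes was 0.058, against 0.069 for all genes. The levels of the 8 genes were not set against each other, since each is read by its own probes, and a lower level in every cell cannot be told apart from fewer cells that hold the transcript.

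The arrays themselves differed in spread, which touches every result below. The median SD of a gene was 0.144 among the miR-342-3p arrays and 0.056 among the control arrays, and the median absolute change from the control mean was 0.240, 0.134 and 0.096 in miR-342-3p replicates 1, 2 and 3. Correlations with the control arrays were 0.9853 to 0.9869, 0.987 to 0.9877 and 0.9958 to 0.9961 for these replicates. Without miR-342-3p replicate 1, 2 or 3 limma called 986, 1830 and 2422 genes lower and 675, 1171 and 2104 higher. On all 6 arrays it called 1479 lower and 825 higher. A gene below that passed only with an array left out is to be read beside these counts. Of 9 macrophage markers, Cd68 (12.58 in miR-342-3p and 12.68 in control cells) and Lyz2 (12.41 and 12.38 in the same order) were measured well above the median gene mean of 7.15, Itgam and Fcgr1 were called lower and Spi1 higher, and Mrc1 was below that median (5.78 and 5.75). The summed log2 level of the 9 markers ranged from 90.39 to 91.86 on miR-342-3p arrays and from 91.68 to 91.85 on control arrays. None of 3 B and 4 T lymphocyte markers was called (11.6% over all genes). Of 4 fibroblast markers Pdgfra was called higher, with summed levels of 27.85 to 29.20 in miR-342-3p and 27.27 to 27.45 in control cells, and of 4 osteoclast markers Mmp9 was called higher, with sums of 28.43 to 29.27 in miR-342-3p and 27.51 to 27.82 in control cells. The part of these differences in the results was not tested.

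**Figure D1:**
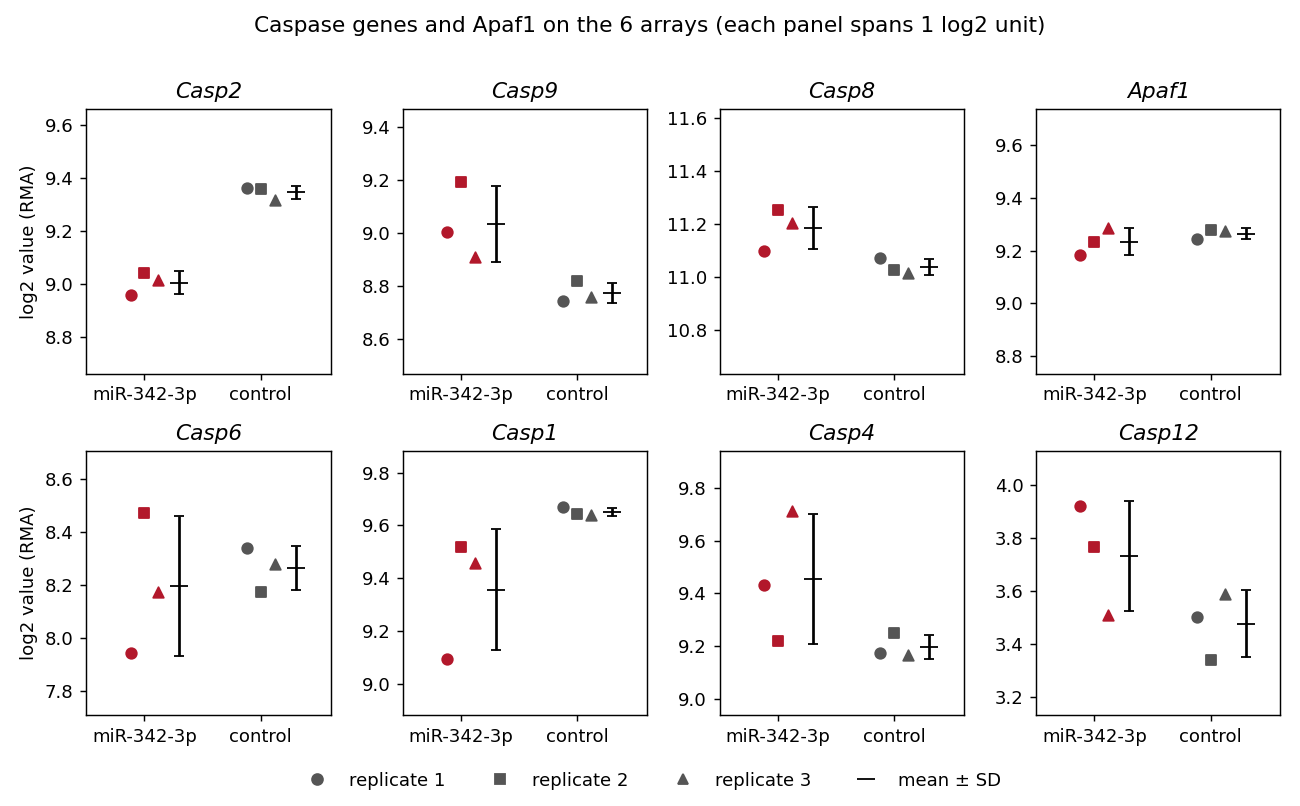
Log2 value (RMA, vertical axis, each panel spanning 1 log2 unit) of the 8 genes on each array; red symbols are miR-342-3p and grey symbols control arrays, the shape gives the replicate, and bars give mean ± SD (n = 3). The Casp2 values of 8.96 to 9.04 in miR-342-3p-transfected cells lie below 9.32 to 9.36 in control cells, and for Casp6 the groups overlap.

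Casp2, which is activated on the PIDDosome after DNA damage or failed cell division, was lower in miR-342-3p-transfected cells. Its log2 values were 8.96, 9.04 and 9.01 on the miR-342-3p arrays, against 9.36, 9.36 and 9.32 on the control arrays. The groups were clearly apart, and no miR-342-3p array came near the lowest control array. The means were 9.01 ± 0.043 in miR-342-3p and 9.35 ± 0.026 in control cells (SD, n = 3 each), and their difference was -0.34 (standard error 0.071, 95% interval -0.50 to -0.18, FDR = 0.0349), which puts miR-342-3p-transfected cells at 79.0% of the control level. The probe set 10537728 reads this gene, which lies at chr6:42264902-42282508 in GRCm38.p6.

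The fall of Casp2 was even across the arrays, with changes of -0.39, -0.30 and -0.33 from the control mean in miR-342-3p replicates 1, 2 and 3. Only 6.40% of all genes had a smaller SD among the miR-342-3p arrays. In replicate 3, the array nearest to the controls, only 3.35% of genes had a lower change than Casp2, whereas 10.9% and 10.7% did in replicates 1 and 2. In size, 10.9% of genes had a larger absolute change than Casp2. By p, 3.06% of all genes ranked before it.

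The call of Casp2 rested on the full set of control arrays. Without control replicate 1, 2 or 3 its log2 fold change was -0.33, -0.33 and -0.36, while the FDR was 0.176, 0.174 and 0.154. Its unadjusted p from limma was 0.0078, 0.0082 and 0.0061 in these fits. Calls over all genes fell too, from 1479 to 102, 115 and 140 lower and from 825 to 100, 88 and 94 higher. Without miR-342-3p replicate 1, 2 or 3 Casp2 stayed called (FDR = 0.0479, 0.0441 and 0.0302). By the methods' t-test, which takes the spread of Casp2 alone, the unadjusted p was 0.000301 and the adjusted p was 0.102. That test passed 48 of all genes at an adjusted p under 0.1.

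The genes whose pattern was most like that of Casp2 were looked up as a description. By Pearson's r of the log2 values over the 6 arrays these were Park7 (0.9983), a protein of the oxidative stress response, Commd10 (0.9981) and Timm8a1 (0.9978), a mitochondrial import factor. Their changes were of other sizes (-0.32, -0.79 and -1.25), since r does not weigh size. By the distance between changes over the 3 miR-342-3p arrays they were Mpzl1 (0.012), Gga2 (0.022) and Get1 (0.023), with log2 fold changes of -0.35, -0.34 and -0.34. All 6 of these genes fell, as Casp2 did, so the likeness in part restates that direction.

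Casp9, the initiator caspase of the mitochondrial pathway, was at 9.00, 9.19 and 8.91 on the miR-342-3p arrays and at 8.74, 8.82 and 8.76 on the control arrays. Every miR-342-3p array was above every control array, and replicate 2 stood highest. The means were 9.03 ± 0.143 in miR-342-3p and 8.77 ± 0.039 in control cells (SD, n = 3 each). The difference was 0.26 (standard error 0.090, 95% interval 0.059 to 0.47), or 20.0% above control, and did not pass the threshold (FDR = 0.12). The gene lies at chr4:141793612-141815978. Its changes of 0.23, 0.42 and 0.14 had the same sign in 3 of 3 arrays. Without miR-342-3p replicate 3 the difference was 0.33 and passed (FDR = 0.0533). It was 0.28 without replicate 1 (FDR = 0.151) and 0.18 without replicate 2 (FDR = 0.136), where it did not pass.

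Apaf1, the scaffold that binds cytochrome c and gathers Casp9, was at 9.18, 9.23 and 9.29 in miR-342-3p-transfected cells and at 9.24, 9.28 and 9.27 in control cells. These ranges overlapped, and the highest value of all was a miR-342-3p array. The difference was -0.031 (95% interval -0.19 to 0.13, FDR = 0.787). Apaf1 lies at chr10:90989311-91082743.

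Casp8, the initiator caspase of death receptors, had miR-342-3p values of 11.10, 11.25 and 11.20, all above the control values of 11.07, 11.03 and 11.02. The gap between the lowest miR-342-3p array (replicate 1) and the highest control array was narrow. With means of 11.18 ± 0.078 in miR-342-3p and 11.04 ± 0.030 in control cells (SD, n = 3 each), the difference of 0.15 (95% interval -0.026 to 0.32) did not pass the threshold (FDR = 0.251). The gene lies at chr1:58795233-58847503.

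Casp6, which cleaves nuclear lamins as an executioner, varied among the miR-342-3p arrays. Its log2 values were 7.94, 8.47 and 8.18 on these arrays, against 8.34, 8.18 and 8.28 on the control arrays. Replicate 1 was below and replicate 2 above all control arrays, so the groups overlapped in both directions. The means were 8.20 ± 0.265 in miR-342-3p and 8.27 ± 0.084 in control cells (SD, n = 3 each), and the difference of -0.068 (95% interval -0.36 to 0.22, FDR = 0.734) turned to 0.058 without replicate 1. Casp6 lies at chr3:129901415-129914112.

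The genes Casp1, Casp4 and Casp12 lie next to each other on chromosome 9 (chr9:5298517-5307281, chr9:5308849-5336791 and chr9:5345442-5373034) and are kin in sequence. None of the 3 was called, and their measured changes did not share 1 sign. Cross-hybridization between their probe sets was not tested.

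Casp1, the caspase of the canonical inflammasomes, was at 9.10, 9.52 and 9.46 on the miR-342-3p arrays and at 9.67, 9.64 and 9.64 on the control arrays. All miR-342-3p arrays were below all control arrays, and replicate 1 was far below the other two. The means were 9.36 ± 0.230 in miR-342-3p and 9.65 ± 0.017 in control cells (SD, n = 3 each), a difference of -0.29 (standard error 0.113, 95% interval -0.55 to -0.037) that did not pass the threshold (FDR = 0.153). Its size hung on replicate 1: the difference was -0.16 without it (FDR = 0.178). Without replicate 2 it was -0.37 and passed (FDR = 0.0910).

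Casp4, which in mice senses cytosolic lipopolysaccharide and drives noncanonical pyroptosis, was at 9.43, 9.22 and 9.71 in miR-342-3p-transfected cells, against 9.18, 9.25 and 9.17 in control cells. Replicates 1 and 3 were above all control arrays, whereas replicate 2 lay within their range. The difference was 0.26 (standard error 0.119, 95% interval -0.014 to 0.53, FDR = 0.213). In replicate 3, the array with the smallest changes over all genes, the change of Casp4 was 0.51, and 99.5% of genes had a lower change there. The difference passed the threshold without replicate 2 (0.37, FDR = 0.0733) and with arrays weighted by their spread (0.36, FDR = 0.0731), whereas without replicate 3 it was 0.13 (FDR = 0.349).

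Casp12, linked in mice to the endoplasmic reticulum, was close to the floor of the array. Only 2.15% of genes had a lower mean. It was at 3.92, 3.77 and 3.51 on the miR-342-3p arrays and at 3.50, 3.34 and 3.59 on the control arrays, and the groups overlapped. The difference was 0.25 (95% interval -0.010 to 0.52, FDR = 0.209). Among the 10% of genes with the lowest control means (under 4.95), the median changes were 0.155, 0.0044 and 0.046 in miR-342-3p replicates 1, 2 and 3, beside 0.44, 0.29 and 0.033 for Casp12. Without replicate 3 the difference was 0.37 (FDR = 0.0581), without replicate 1 it was 0.16 (FDR = 0.409), and with array weights it was 0.14 (FDR = 0.507).

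**Figure D2:**
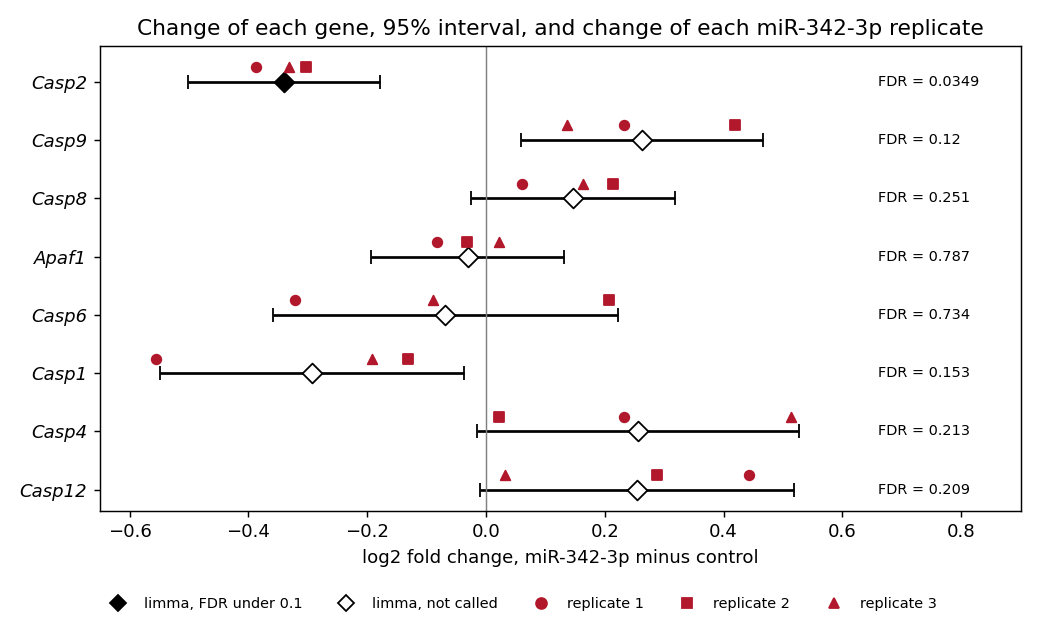
Log2 fold change of the 8 genes (miR-342-3p minus control, horizontal axis); diamonds are limma estimates with 95% intervals, filled where the FDR was under 0.1, and red symbols are the changes of the single miR-342-3p replicates from the control mean (n = 3). Casp2 at -0.34 is the filled diamond, and the interval of Casp1 (-0.55 to -0.037) and that of Casp9 (0.059 to 0.47) leave out 0 although neither gene was called.

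Differences between genes within the same array do not move with a shift common to the whole array. They are given as a description, with no test, for pairs that were chosen with the values known. The change of Casp9 minus that of Casp2 was 0.62, 0.72 and 0.47 in miR-342-3p replicates 1, 2 and 3, and that of Casp8 minus that of Casp2 was 0.45, 0.52 and 0.50. Casp9 minus its scaffold Apaf1 was 0.31, 0.45 and 0.12. The sign was not the same on all 3 arrays for Casp9 minus Casp8, at 0.17, 0.21 and -0.027. Nor was it for Casp12 minus Casp4, at 0.21, 0.27 and -0.48. In the cluster on chromosome 9, Casp4 minus Casp1 was 0.79, 0.15 and 0.71, so the size of this gap differed widely between the arrays.

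The promoters are shown as a description of the genes, and no link between a motif and a change was tested. All 8 genes matched the RefSeq promoter table of GRCm38.p6, with 9 entries of 250 bases before and 50 bases after an annotated start, of which Casp4 had 2. On both strands 8 motifs were searched, and the windows printed were chosen after the matches were seen. An E2F site (TTTCCCGC, TTTCGCGC or TTTGGCGC), the motif of the factors that drive S phase genes, was in 1.84% of the 32851 promoters of the table and, among the 8 genes, in that of Casp2. It began 97 bases before the start in the promoter table and 14 bases before the gene start given above, since that table takes a later annotated start (position 42264985) for Casp2. The Casp4 promoter held 3 kappa-B-like sites (GGGNNNTTC or its reverse complement), the motif of NF-kappa-B, at 93, 38 and 13 bases before the first of its starts, which is also the gene start. At least 1 was in 14% and 3 or more in 0.0913% of all promoters, and the promoters of the neighbouring Casp1 and Casp12 held none. The cut of 3 is the number found in Casp4, 1 of 8 genes searched for 8 motifs, so the second share is no test of rarity. Capitals mark the motif and lower case the 5 bases on either side, on the plus strand at chr6:42264883-42264900, chr9:5308751-5308769, chr9:5308806-5308824 and chr9:5308831-5308849.
Casp2 E2F: gctctTTTCCCGCccctt
Casp4 kappa-B 1: ttacaGGGGATTTCcccac
Casp4 kappa-B 2: tcctgGAAGTCCCCgcctc
Casp4 kappa-B 3: ctaagGAAATGCCCagtaa

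For each of the other motifs the share of all promoters is given in brackets. The GC box GGGCGG (35.7% of all promoters) was in those of Apaf1, Casp2, Casp6 and Casp9, and CCAAT (37.4%) in those of Casp2, Casp8 and Casp12. The E-box CACGTG (7.15%) was in that of Casp1 and the GAS element TTCNNNGAA (8.3%) in that of Casp12. The interferon response element GAAANNGAA (8.56%) and the cAMP response element TGACGTCA (1.79%) were in none of the 9. A match describes the letters of these windows and says nothing of binding in these cells.

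The partners of the caspases were read from 8 lists of activators, adaptors, substrates and inhibitors. Of their 52 measured genes, 10 were called lower and 2 higher in miR-342-3p-transfected cells (23.1% called, against 11.6% of all genes), with a median change of -0.040, against 0.069 for all genes. Without control replicate 1, 2 or 3, limma called 0 of these 52 genes in either direction, with 13, 15 and 15 (25%, 28.8% and 28.8%) at an unadjusted p under 0.05, where 15.4%, 16.5% and 15.8% of all genes stood. On all 6 arrays 21 (40.4%) had such a p, against 25.5% of all genes. By the methods' t-test 0 were called and 14 (26.9%) had an unadjusted p under 0.05, against 20.2% of all genes.

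Around Casp2, the PIDDosome scaffold Pidd1 (-0.16, FDR = 0.235) and its adaptor Cradd (-0.17, FDR = 0.243) were not called. Mdm2, the p53 inhibitor that Casp2 cleaves, was called higher. It was at 9.95, 10.10 and 9.87 on the miR-342-3p arrays, against 9.51, 9.48 and 9.49 on the control arrays. The groups were far apart, with a difference of 0.48 (FDR = 0.0207).

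Around Casp9 and Apaf1, 3 of 7 genes of the apoptosome and of mitochondrial release were called lower (7.42% over all genes) and 0 higher (median -0.19). Diablo, which relieves caspases of IAP inhibitors, was at -0.39 (FDR = 0.0732, and 0.110 with each array centred on its median) and Aifm1, a flavoprotein that moves to the nucleus in cell death, at -0.38 (FDR = 0.0529). The chaperonin Hspd1 was at -0.43 (FDR = 0.0570). Its other probe set, with the higher mean, was at -0.27 and not called when used instead (FDR = 0.104). Cytochrome c (Cycs), the ligand of Apaf1, was not called (-0.19, FDR = 0.311), and its 2 other probe sets were at 0.10 and 0.15.

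Around Casp8, none of 9 genes of the death receptors and complex II was called (11.6% over all genes, median -0.012). At an unadjusted p under 0.05 limma took 5 (25.5% over all genes) and the methods' t-test 2 (20.2%). The adaptor Tradd came nearest to the threshold with -0.37 (FDR = 0.105). Casp8ap2, which binds the death effector domains of Casp8 and is also needed for histone gene expression, was at 7.33, 6.38 and 7.98 on the miR-342-3p arrays and at 8.41, 8.22 and 8.22 on the control arrays. All miR-342-3p arrays were lower, by widely different amounts. The difference was -1.05 (FDR = 0.0941), -0.63 without replicate 2 and not called without replicate 1 (FDR = 0.182). Nor was it called with a trend and robust prior (FDR = 0.155) or with array weights (-0.76, FDR = 0.104). The paracaspase Malt1 was called lower (-0.38, FDR = 0.0703), though not without miR-342-3p replicate 1 (FDR = 0.141) or replicate 2 (FDR = 0.101). Cflar, the inhibitor of Casp8 (-0.26, FDR = 0.161), and Casp14 of the skin (0.19, FDR = 0.298) were not called.

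Around Casp1, 2 of 10 inflammasome sensors and adaptors were called lower (7.42% over all genes) and 0 higher (median -0.038). Pycard, the adaptor ASC that joins sensors to Casp1, was at 8.21, 8.33 and 8.43 in miR-342-3p-transfected cells, against 8.85, 8.68 and 8.75 in control cells. Nek7, the kinase that the sensor Nlrp3 needs, was at 10.10, 10.08 and 10.43 in miR-342-3p-transfected cells and at 10.80, 10.75 and 10.66 in control cells. For both genes the groups did not overlap, with differences of -0.43 (FDR = 0.0316) for Pycard and -0.54 (FDR = 0.0303) for Nek7. Nlrp3 itself was at 0.056 (FDR = 0.706). Of the 5 substrates and products of inflammatory caspases, none was called (11.6% over all genes, median 0.11). By limma 1 of them had an unadjusted p under 0.05 (25.5% over all genes), namely Il1b (0.20, FDR = 0.145). The pore-forming Gsdmd was at 0.035 (FDR = 0.831).

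Among 8 substrates of the executioner caspases and factors of DNA fragmentation, 3 were called lower (7.42% over all genes) and 0 higher (median -0.28). These were the lamin Lmnb1 (-0.42, FDR = 0.0256), the DNA repair enzyme Parp1 (-0.41, FDR = 0.0564) and the gasdermin Gsdme (-0.56, FDR = 0.0698). The Gsdme probe set used had a control mean of 5.70, below the median gene mean of 7.15. Its other probe set, with the higher mean, was at -0.056 and not called when used instead (FDR = 0.628). The call was also lost without miR-342-3p replicate 1 (FDR = 0.164) or replicate 2 (FDR = 0.109), and with array weights (-0.43, FDR = 0.107). The kinase Rock1 had a difference of -1.12 but was not called (FDR = 0.153), with changes of -0.83, -2.33 and -0.20 in the 3 miR-342-3p arrays. Of 6 inhibitory serpins and decoys with a caspase recruitment domain, Serpinb9b, of the family of granzyme B inhibitors, was called higher (0.75, FDR = 0.0525, with 4.14% of all genes called higher) and 0 lower (median 0.17).

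**Figure D3:**
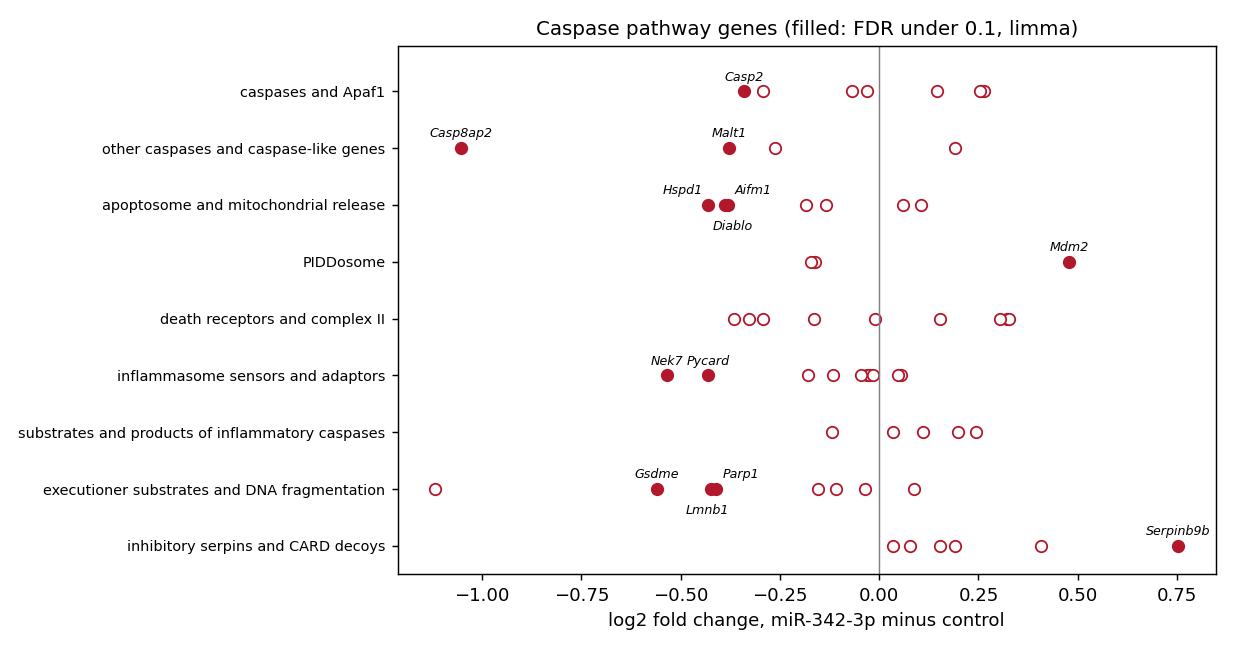
Log2 fold change (miR-342-3p minus control, horizontal axis) of the 8 genes and of the 52 measured genes of the partner lists; each circle is 1 gene, filled and named where the FDR from limma was under 0.1. Filled circles on the left are Casp2 and the 10 partners called lower, and those on the right are Mdm2 (0.48) and Serpinb9b (0.75).

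**Figure D4:**
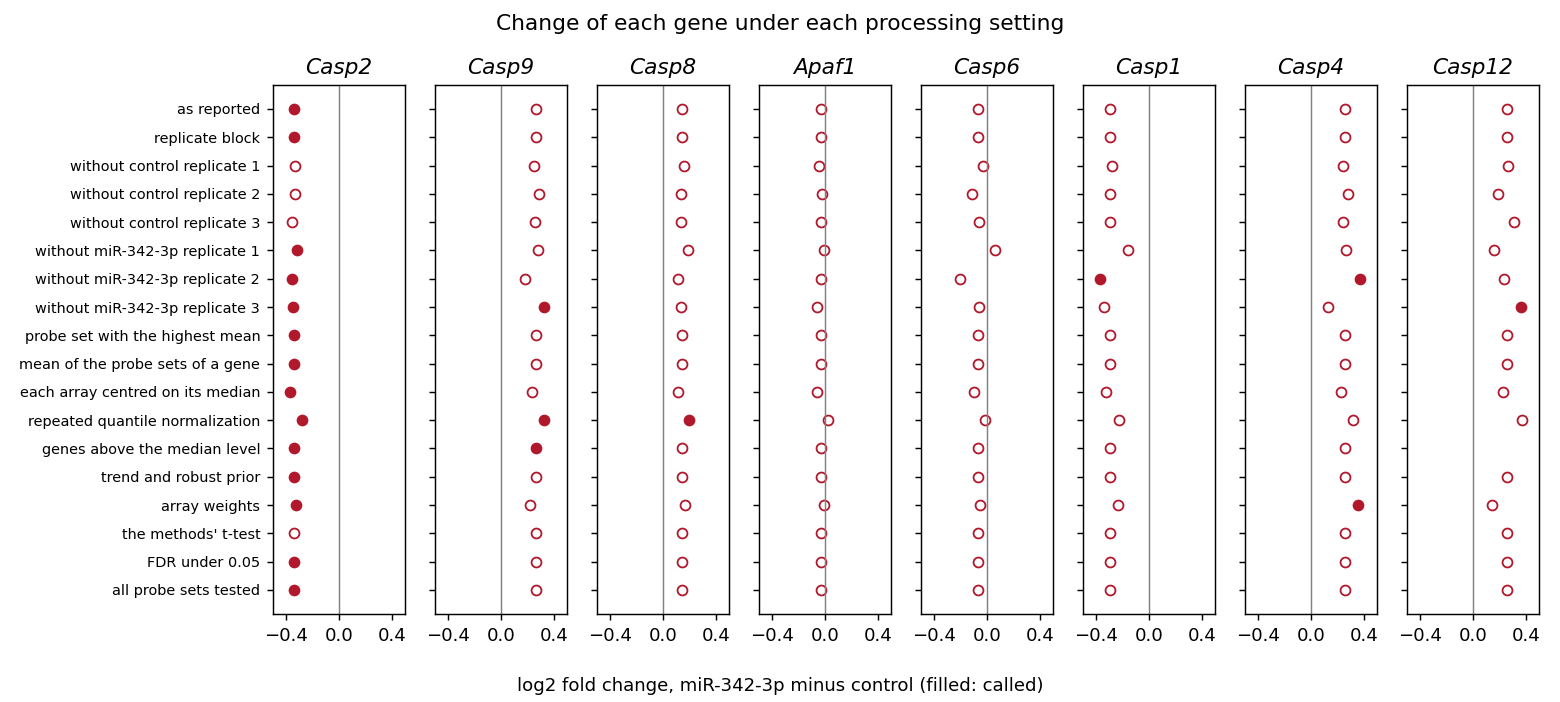
Log2 fold change (miR-342-3p minus control, horizontal axis) of each of the 8 genes under each processing setting (rows); filled circles were called under that setting. Casp2 stayed between -0.37 and -0.28, and Casp6 and Apaf1 are the genes that crossed 0 under 1 setting each; Casp12 has no value under the filter on level.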

How the data were processed

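RAW264.7 cells were measured on 6 Affymetrix whole-transcript mouse arrays, 3 per group. The authors made the deposited log2 values with RMA (version not given in the sources used here), which adjusts the background, quantile-normalizes and summarizes probes, for 35556 probe sets. Groups came from the sample titles. A legend of the study calls the samples of a group independent experiments, which the labels do not state, so the spread may be partly technical. The number of arrays limits the precision.

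Of the probe sets, 21789 had 1 gene in the platform annotation, 1621 several and 12146 none. Symbols were checked against RefSeq (GRCm38.p6) through 21698 Entrez matches, with 0 changed. Where a gene had several probe sets (999 genes), the one with the largest interquartile range was used, as in the methods of the study. lmFit and eBayes of limma version 3.58.1 (R version 4.3.3) were run on 19938 genes without a filter, with Benjamini and Hochberg adjustment. The steps were tested on simulated data with the same spread in both groups, which these arrays did not have. Figures were made in Python version 3.11.15 with matplotlib version 3.10.9.

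The 8 genes, the lists and the tests were chosen with earlier results of these data known. All 8 genes, the called genes of each list (at most 4 in each direction) and the genes most like called ones were named by rule, and the other list genes named were chosen after their values were seen. Alternatives were a replicate block, each array left out, other probe set choices, scalings, a filter on level, priors, array weights, the methods' t-test and a threshold of 0.05. Testing all probe sets together was added after seeing the data. Protein and UTR sequences were not used here.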

Additional observations from a re-analysis of the deposited data

How the results depend on the processing

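Casp2 kept its direction under all 17 alternatives (-0.37 to -0.28, FDR 0.0184 to 0.176). With 1 array left out it ranged from -0.36 to -0.32 and was not called without control replicate 1, 2 or 3. By the methods' t-test it was at -0.34 (adjusted p = 0.102). With 1 array left out Casp1 ranged from -0.37 to -0.16, Casp4 from 0.13 to 0.37, Casp9 from 0.18 to 0.33 and Casp12 from 0.16 to 0.37. Each passed the threshold without 1 miR-342-3p array, namely replicate 2 for Casp1 and Casp4 and replicate 3 for Casp9 and Casp12. Casp6 ranged from -0.21 to 0.058 and changed sign without miR-342-3p replicate 1. With repeated quantile normalization Casp9 (0.33, FDR = 0.0596) and Casp8 (0.20, FDR = 0.0960) passed, and Apaf1 turned to 0.026. Casp9 also passed among genes above the median level (0.26, FDR = 0.0716), where Casp12 gave no value, and Casp4 with array weights (0.36). That filter left the Casp9 difference as it was and tested fewer genes, of which 1952 were called lower and 1086 higher. Without the filter the counts were 1479 and 825 of 19938 genes. The cause of the changes between settings was not tested.

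Of the 8 genes, 0 to 2 were called lower and 0 to 2 higher with 1 array left out. Over all genes these fits called 102 to 2422 lower and 88 to 2104 higher. The methods' t-test called 0 lower after adjustment (3 at an unadjusted p under 0.05, namely Casp2 lower and Casp8 and Casp9 higher). Repeated quantile normalization called 2 higher (1817 over all genes). The filter on level and array weights each called 1 higher (1086 and 748 over the genes tested). Of the partner genes, 0 to 13 were called lower and 0 to 5 higher with 1 array left out, 0 and 0 by the methods' t-test (which called 48 of all genes, and 4035 at an unadjusted p under 0.05). At a threshold of 0.05, 3 were called lower and 1 higher, when all probe sets were tested 2 and 1, and with repeated quantile normalization 6 were called higher.

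Over all genes, 1479 were called lower and 825 higher. Without control replicate 1, 2 or 3 the counts were 102, 115 and 140 lower and 100, 88 and 94 higher, and without miR-342-3p replicate 3 they were 2422 lower and 2104 higher. The methods' t-test gave 22 lower and 26 higher and a threshold of 0.05 gave 661 and 312. All probe sets gave 535 and 259. The share of calls that were lower was 64.2% as deposited, 77.2% with arrays centred (408 higher) and 43.9% with repeated quantile normalization (1817 higher). With the replicate number as a block, Casp2 stayed called (FDR = 0.0772), and 1445 genes were lower and 550 higher. Deviations from the group mean correlated at -0.308, -0.163 and -0.106 for samples with the same number. For samples with unlike numbers they correlated at -0.069 to 0.228. Deviations within a group depend on each other, so these values cannot decide whether samples with the same number share more than the number.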
